A study of Mus musculus with 24 samples.

Results

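The MHC class II genes were followed across 24 RNA-seq libraries of T cells taken from cultures of OT-1 mouse splenocytes. The 10 members were chosen by symbol and are Cd74, H2-Aa, H2-Ab1, H2-Eb1, H2-DMa, H2-DMb1, H2-DMb2, H2-Oa, H2-Ob and Ciita, out of 48526 genes counted. All 10 passed the filter on low counts that left 14560 genes for testing. The comparisons ask how much class II transcript each library of selected T cells carried and in which groups that amount differed.

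MHC class II molecules are α and β chain dimers that carry peptides from the endocytic pathway to the surface of B cells, dendritic cells and macrophages, where CD4+ T cells read them. The invariant chain, encoded by Cd74, fills the groove until proteases cut it down and the DM dimer exchanges the remnant for peptide, and the DO dimer, known mainly from B cells, restrains DM. Transcription of the whole set depends on CIITA, a coactivator that binds no DNA itself and works through the RFX and NF-Y complexes on the X and Y boxes of class II promoters. Interferon-γ induces Ciita in many cell types, maturing dendritic cells and plasma cells shut it off, and activated mouse T cells, unlike activated human T cells, are known to make little class II protein of their own.

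OT-1 mice carry a transgenic T cell receptor that recognises an ovalbumin peptide on MHC class I, and the labels name the cells as CD8+ T cells. Splenocytes were cultured with 2 µg/mL of peptide, and T cells were then isolated by magnetic depletion of other cells. The 6 groups of 4 libraries each were TLR7 agonist with peptide at 72 h, TLR2 agonist with peptide at 72 h, peptide alone at 72 h (labelled OVA), and the same 3 conditions at 24 h. Agonists went in 1 h before the peptide. The protocol lists Pam3CSK4, a TLR2 agonist, at 300 ng/mL and both gardiquimod at 3 µg/mL and R848 at 10 µg/mL as TLR7 agonists, and no source used here says which one the sequenced TLR7 groups received. All groups share the OT-1 strain, the peptide and the selection, and there was no unstimulated group among them. No source used here gives the age or sex of the mice, or says whether the 4 libraries of a group came from separate mice or cultures. The p-values therefore measure only the spread between the libraries, which may be technical.

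Library totals ran between 10506711 and 27064067 expected counts, and 5 libraries were shallow, with at most 11745580. Cd3e lay between 107 and 321 CPM (counts scaled to library size) and Cd8a between 457 and 904 CPM in all 24 libraries, with Cd4 at no more than 2.00 CPM, so the T cell label held in each. On the first principal component, which took 60.2% of the variance, 8 libraries lay between the other 24 h and 72 h libraries. These intermediate libraries were TLR2 72 h replicates 1, 3 and 4, OVA 72 h replicate 4, TLR7 24 h replicates 3 and 4, and OVA 24 h replicates 1 and 3. The other 16 were 8 libraries labelled 72 h (4 TLR7, 1 TLR2 and 3 OVA) and 8 labelled 24 h (2 TLR7, 4 TLR2 and 2 OVA). OVA 72 h replicate 3 stood apart in a different way, with myeloid and neutrophil transcripts that the 7 other non-intermediate 72 h libraries nearly lacked. For the comparisons in which members were called, the number called is given with and without the intermediate libraries. For runs without the 5 shallow libraries the share of all genes passing is not given. Calls lost there cannot be told from a loss over all genes. Values that rest on OVA 72 h replicate 3 are also given without it.

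Class II promoters are known for an X box followed at a short distance by a Y box, and the members' promoters are shown because these elements are what CIITA acts through. RefSeq promoter entries on build GRCm38.p6 were found for 7 of the 10 members, and the 61-base windows below, all on chromosome 17 and written 5′ to 3′ along the gene's strand, have in capitals GATTGG, the letters of a Y box, and, upstream of it, either AAC, any 2 bases and ATGATGC, or GCAAC, letters of the X box region.
H2-Aa, chr17:34287857-34287917, minus strand: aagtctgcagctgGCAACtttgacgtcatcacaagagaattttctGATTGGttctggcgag
H2-Eb1, chr17:34305762-34305822, plus strand: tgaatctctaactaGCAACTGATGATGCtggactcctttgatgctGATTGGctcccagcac
H2-DMb1, chr17:34153084-34153144, plus strand: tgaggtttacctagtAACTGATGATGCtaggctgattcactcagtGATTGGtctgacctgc
H2-DMb2, chr17:34145113-34145173, plus strand: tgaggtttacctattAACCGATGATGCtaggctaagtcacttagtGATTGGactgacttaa
H2-Oa, chr17:34092290-34092350, plus strand: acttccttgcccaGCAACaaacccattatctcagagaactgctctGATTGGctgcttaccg
H2-Ob, chr17:34238802-34238862, plus strand: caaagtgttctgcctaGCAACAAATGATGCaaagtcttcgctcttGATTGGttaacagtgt

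In these 6 genes GATTGG lay between 38 and 85 bases upstream of the annotated start. GATTGG was present, on either strand, in 16.1% of all 32851 promoter entries, and GCAAC in 35.2%. The longer run of AAC, any 2 bases and ATGATGC was present in 13 entries, or 0.0396%, and 4 of the genes holding it were H2-Eb1, H2-DMb1, H2-DMb2 and H2-Ob. For H2-DMa, whose product pairs with the DMβ chains, GATTGG was sought on the gene's strand in part of each entry. The first of 2 RefSeq starts had none upstream in that part. The second had one 193 bases before the start, with neither of the other motifs ahead of it within a 61-base window. Over whole entries and either strand, H2-DMa was among the genes with GCAAC. The motifs were chosen after the members' promoters had been read, and a match describes letters, not a bound site.

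Among the non-intermediate libraries, pooled over the conditions, Cd74, H2-Aa, H2-Eb1 and Ciita had lower medians at 72 h than at 24 h, whereas H2-Ab1, H2-DMa and H2-Oa had higher ones. H2-Ab1 was an exception under peptide alone, with means of 35.8 CPM at 72 h and 45.4 CPM at 24 h over all libraries. Across the 8 non-intermediate 72 h libraries the median of H2-Aa was 0.827 CPM, against 36.5 CPM across the 8 non-intermediate 24 h libraries. For H2-Ab1, the β chain that pairs with H2-Aa, the medians were 41.7 CPM at 72 h and 17.5 CPM at 24 h. The intermediate libraries had medians between these, 17.8 CPM for H2-Aa and 29.0 CPM for H2-Ab1. These sets hold TLR7, TLR2 and OVA libraries in different numbers, so the pooled medians mix condition with time. Since these are bulk samples, fewer cells of a type and less RNA per cell cannot be told apart for any of these genes.

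**Figure D1:**
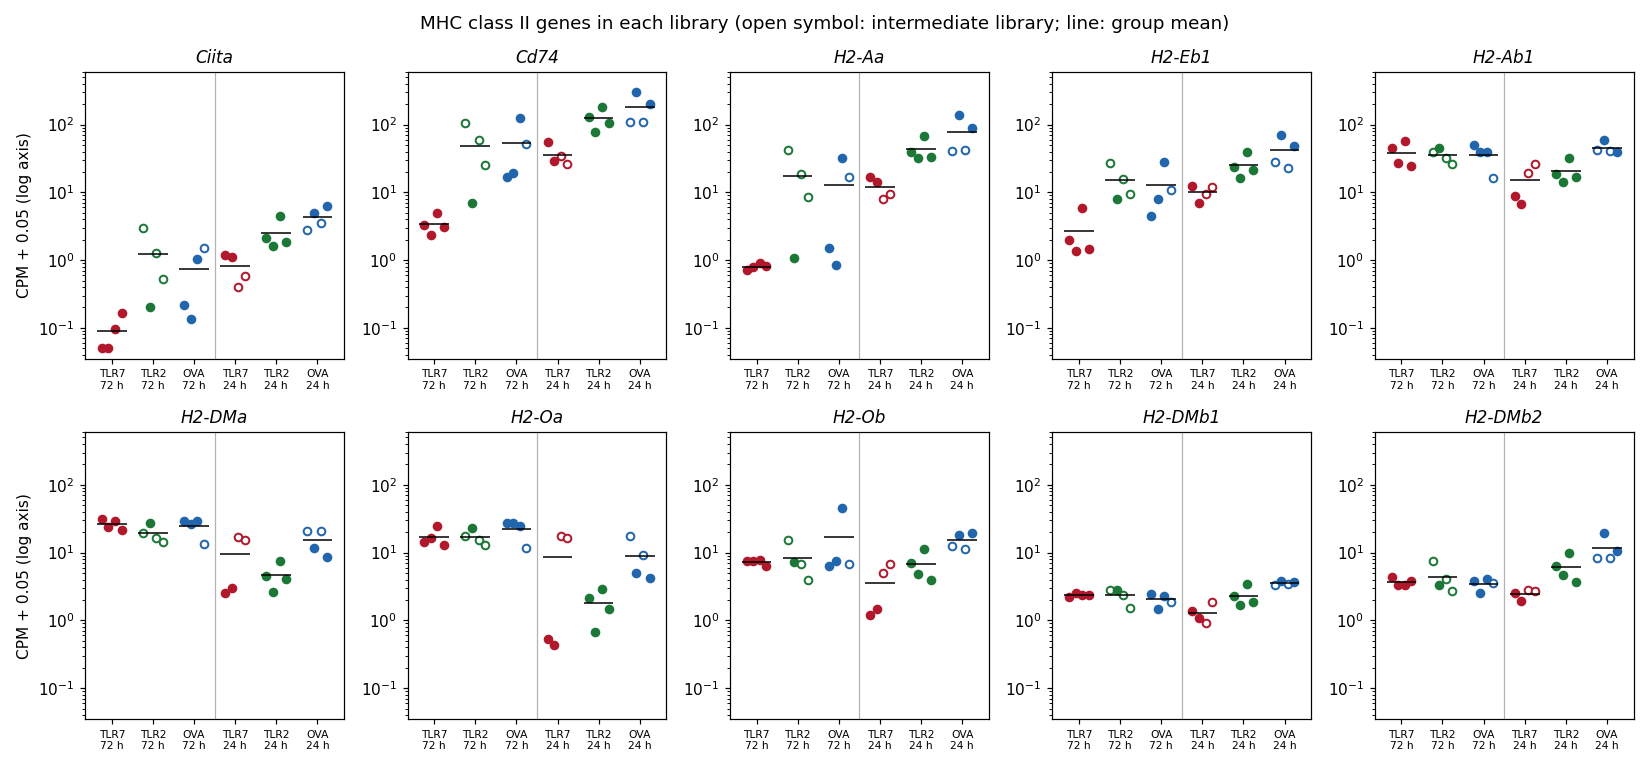
Level of each of the 10 class II genes (CPM + 0.05, log axis) in every library, 1 symbol a library, by group, with a line at the group mean, with open symbols for the 8 intermediate libraries and filled symbols for the other 16. Cd74, H2-Aa, H2-Eb1 and Ciita have their lowest group mean under TLR7 at 72 h, while H2-Ab1, H2-DMa and H2-Oa stay high there and are lowest in filled 24 h libraries.

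Cd74, the invariant chain (chromosome 18), had the highest level per exonic kilobase of the members in every 24 h library. The TLR7 72 h libraries held 3.23, 2.31, 4.93 and 3.07 CPM, the TLR2 72 h libraries 104, 6.96, 59.1 and 25.2 CPM, and the OVA 72 h libraries 17.0, 19.0, 123 and 52.4 CPM. Every TLR7 library at 72 h lay below every other library at either time. At 24 h the TLR7 libraries held 55.0, 28.7, 34.5 and 26.1 CPM, the TLR2 libraries 128, 77.9, 182 and 107 CPM, and the OVA libraries 111, 306, 109.9 and 203 CPM. The 4 TLR7 libraries at 24 h were again below all TLR2 and OVA libraries of that time. At 72 h the TLR2 and OVA libraries were spread widely, with the 3 intermediate TLR2 libraries, the intermediate OVA library and OVA replicate 3 holding the highest values.

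H2-Aa, the I-A α chain (chr17:34282744-34287823, minus strand, GENCODE M21 on GRCm38, as for the other positions given), showed the same order with a steeper drop. The TLR7 72 h libraries held 0.665, 0.744, 0.852 and 0.758 CPM, from between 7 and 20 counts each, the TLR2 72 h libraries 42.3, 1.03, 18.5 and 8.48 CPM, and the OVA 72 h libraries 1.47, 0.803, 31.9 and 17.0 CPM. Low values near 1 CPM were thus found in all 4 TLR7 libraries and in the non-intermediate TLR2 and OVA libraries other than OVA replicate 3. At 24 h the TLR7 libraries held 17.0, 14.0, 7.83 and 9.45 CPM, the TLR2 libraries 39.2, 31.9, 66.9 and 33.7 CPM, and the OVA libraries 40.7, 136, 41.8 and 87.8 CPM. The 24 h groups under TLR7 and OVA did not overlap, nor did those under TLR7 and TLR2.

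H2-Eb1, the I-E β chain (chr17:34305867-34316674, plus strand), belongs to the same set. In mice of the H-2b type the I-E α gene is inactive, and its pseudogene H2-Ea-ps was at 0 counts in all 24 libraries. H2-Eb1 was at 1.90, 1.32, 5.87 and 1.40 CPM in TLR7 72 h libraries, at 26.9, 8.04, 15.5 and 9.47 CPM in TLR2 72 h libraries, and at 4.46, 7.81, 28.3 and 10.8 CPM in OVA 72 h libraries. The TLR7 and TLR2 libraries did not overlap at 72 h, while TLR7 replicate 3 reached into the OVA range. At 24 h it was at 12.3, 6.87, 9.51 and 11.8 CPM under TLR7, at 23.5, 16.3, 39.2 and 21.3 CPM under TLR2, and at 27.7, 70.4, 22.5 and 48.3 CPM under OVA. Every TLR7 library was below every library of the other groups at 24 h. Gm20513, antisense to H2-Eb1, was at no more than 0.136 CPM in the non-intermediate libraries.

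Ciita, the class II transactivator (chr16:10480059-10528418, plus strand), was the member with the fewest reads. It had 0, 0, 1 and 3 counts in the TLR7 72 h libraries, at or under the 3 counts taken here as the limit of detection in 1 library. The TLR2 72 h libraries held 2.90, 0.153, 1.21 and 0.475 CPM and the OVA 72 h libraries 0.168, 0.0845, 1.00 and 1.47 CPM. As with H2-Aa, every 72 h value above 0.168 CPM came from the intermediate libraries and OVA replicate 3. At 24 h Ciita was at 1.14, 1.05, 0.346 and 0.533 CPM under TLR7, at 2.05, 1.58, 4.44 and 1.79 CPM under TLR2, and at 2.72, 4.91, 3.47 and 6.19 CPM under OVA, with every TLR7 library below every library of the other groups. The level at 24 h was low in all groups beside Cd74, with a median of 0.201 CPM per exonic kilobase over the 8 non-intermediate libraries, against 69.9 for Cd74. Dexi, which overlaps Ciita on the opposite strand, lay between 6.17 and 11.9 CPM in the non-intermediate 72 h libraries and between 2.77 and 4.93 CPM in those of 24 h, the other way round from Ciita.

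H2-Ab1, the I-A β chain (chr17:34257689-34269419, plus strand), did not follow its partner. The TLR7 72 h libraries held 45.6, 26.9, 57.1 and 24.1 CPM, the TLR2 72 h libraries 40.0, 44.6, 32.0 and 25.9 CPM, and the OVA 72 h libraries 49.7, 38.7, 38.7 and 16.2 CPM. The 3 groups overlapped throughout at 72 h. At 24 h the TLR7 libraries held 8.92, 6.77, 19.4 and 26.1 CPM, the TLR2 libraries 18.5, 14.2, 32.0 and 16.6 CPM, and the OVA libraries 42.3, 59.4, 40.9 and 38.9 CPM. The OVA libraries were the highest at 24 h and overlapped with neither agonist group.

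H2-DMa, the DM α chain that catalyses peptide loading (chr17:34119541-34139101, plus strand), was at 30.8, 23.5, 29.5 and 21.8 CPM under TLR7, at 19.3, 27.7, 16.2 and 14.2 CPM under TLR2 and at 29.5, 26.0, 29.4 and 13.4 CPM under OVA at 72 h. At 24 h it was at 2.46, 2.96, 17.0 and 15.2 CPM under TLR7, at 4.47, 2.60, 7.49 and 4.03 CPM under TLR2 and at 20.8, 11.7, 20.5 and 8.57 CPM under OVA. The high 24 h values under TLR7 and OVA were those of the intermediate libraries. H2-DMa overlaps Brd2 on the opposite strand, and no source used here says whether counting was by strand. Brd2 lay between 237 and 352 CPM in all 24 libraries and did not pass the test between 72 h and 24 h under any condition.

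The DM β chains H2-DMb1 and H2-DMb2 (chr17:34153072-34160230 and chr17:34143307-34151555, both plus strand) are near copies. Between them 369 different 50-base words of their transcripts are shared, 22.7% of those of H2-DMb1 and 21.2% of those of H2-DMb2, and their expected counts were not whole numbers in any of the 24 libraries, so the split of reads between them is uncertain. H2-DMb1 was at 2.18, 2.48, 2.33 and 2.31 CPM under TLR7, between 1.50 and 2.79 CPM under TLR2 and between 1.44 and 2.44 CPM under OVA at 72 h. At 24 h it was at 1.32, 1.05, 0.865 and 1.79 CPM under TLR7, between 1.63 and 3.38 CPM under TLR2, and at 3.31, 3.77, 3.34 and 3.62 CPM under OVA. H2-DMb2 was at 4.27, 3.22, 3.32 and 3.79 CPM under TLR7, between 2.63 and 7.52 CPM under TLR2 and between 2.45 and 4.05 CPM under OVA at 72 h. At 24 h it was at 2.46, 1.91, 2.72 and 2.63 CPM under TLR7, between 3.58 and 9.98 CPM under TLR2, and at 8.26, 19.4, 8.17 and 10.5 CPM under OVA. For both genes the highest group was OVA at 24 h and the lowest was TLR7 at 24 h, which did not overlap.

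The DO chains differed in how far their levels moved between times. H2-Oa, the DO α chain (chr17:34092340-34095234, plus strand), was at 14.3, 16.1, 24.3 and 12.8 CPM under TLR7, at 17.4, 23.2, 15.2 and 12.9 CPM under TLR2 and at 27.4, 27.0, 24.4 and 11.5 CPM under OVA at 72 h. At 24 h it was at 0.483, 0.381, 17.4 and 16.2 CPM under TLR7, at 2.09, 0.616, 2.81 and 1.43 CPM under TLR2 and at 17.5, 4.91, 9.03 and 4.24 CPM under OVA. The 8 non-intermediate 72 h libraries were at or above 12.8 CPM, and the 8 non-intermediate 24 h libraries at or below 4.91 CPM. Of the 10 members only H2-Oa and H2-DMa had all libraries of that 72 h set above all of the 24 h set. The share of all genes that separate these sets is not given here. The sets were formed on the first principal component of the same data, so such separation may be common. The antisense gene BC051537 across H2-Oa was at no more than 0.683 CPM in any of them. H2-Ob, the DO β chain (chr17:34238903-34254414, plus strand), was at 7.41, 7.36, 7.67 and 6.22 CPM under TLR7, at 15.2, 7.27, 6.67 and 3.88 CPM under TLR2 and at 6.40, 7.56, 46.1 and 6.77 CPM under OVA at 72 h. OVA replicate 3 alone was several times above the rest. At 24 h H2-Ob was at 1.14, 1.43, 4.89 and 6.63 CPM under TLR7, at 7.06, 4.80, 11.4 and 3.85 CPM under TLR2 and at 12.5, 18.2, 11.3 and 19.2 CPM under OVA.

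The mismatch between partner chains was clearest in ratios of counts per exonic kilobase within a library, which no scaling between libraries can alter. Among the non-intermediate 72 h libraries, H2-Ab1 over H2-Aa was 1.80 in OVA replicate 3 and between 47.0 and 101 in the other 7. In the 8 non-intermediate 24 h libraries it lay between 0.644 and 0.774, whatever the agonist. The intermediate libraries, of both labelled times, lay between 1.40 and 4.52. H2-Oa over H2-Ob was between 2.02 and 16.4 in the non-intermediate 72 h libraries. The 2.02 was that of OVA replicate 3, and without it the lowest was 7.40. The bounds were 0.491 and 1.62 in the non-intermediate 24 h libraries, and 3.05 and 13.6 in the intermediate libraries of both times. Cd74 took between 3.86% and 49.1% of the members' total per-kilobase counts in the non-intermediate 72 h libraries, with a median of 6.58%. The 49.1% was that of OVA replicate 3, and without it the highest share was 18.6% and the median 5.67%. In the non-intermediate 24 h libraries Cd74 took between 56.7% and 66.2%. In the intermediate libraries its share was between 28.7% and 52.2%.

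**Figure D2:**
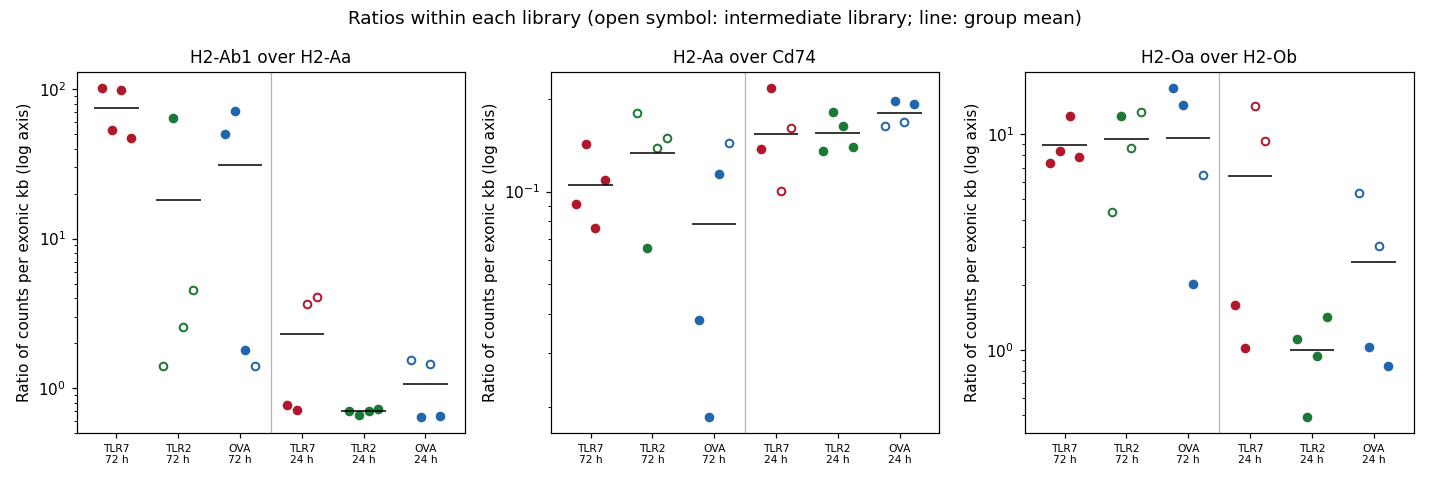
Ratios of counts per exonic kilobase within each library (log axis) for H2-Ab1 over H2-Aa, H2-Aa over Cd74 and H2-Oa over H2-Ob, by group, with a line at the group mean and open symbols for the 8 intermediate libraries. For H2-Ab1 over H2-Aa the filled 72 h libraries lie at 47.0 or more except OVA replicate 3 at 1.80, the filled 24 h ones below 1, and the open ones of both times between 1.40 and 4.52.

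Ratios to a B cell and a T cell transcript differed between the members. H2-Aa over Cd79a, a chain of the B cell receptor, lay between 0.179 and 1.46 in non-intermediate 72 h libraries, between 0.965 and 1.64 in intermediate libraries, and between 1.02 and 1.94 in non-intermediate 24 h libraries. Cd74 over Cd79a was between 1.97 and 78.1 in non-intermediate 72 h libraries, against 5.95 and 11.3 as the bounds in those of 24 h. The 78.1 was that of OVA 72 h replicate 2, where Cd79a was at 0.211 CPM and 3 counts equal 0.130 CPM. In the TLR7 72 h libraries Cd79a went down to 0.303 CPM. With so few counts of Cd79a, the spread of these ratios at 72 h cannot show whether a fixed ratio was kept. H2-Ab1 over Cd79a was between 18.2 and 104 in the 7 non-intermediate 72 h libraries other than OVA replicate 3, against 0.739 and 1.39 as the bounds at 24 h. The 104 was again that of OVA 72 h replicate 2. H2-DMa over Cd3e lay between 0.106 and 0.183 in the non-intermediate 72 h libraries and between 0.0268 and 0.0812 in those of 24 h. H2-Oa over Cd3e lay between 0.193 and 0.319 at 72 h and between 0.0103 and 0.0832 at 24 h. So H2-DMa and H2-Oa were higher at 72 h also relative to Cd3e, without overlap of these sets, for which no share over all genes is given. H2-Ab1 over Cd3e overlapped between them, at 0.192 to 0.411 at 72 h and 0.0997 to 0.552 at 24 h.

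OVA 72 h replicate 3 carried the class II set together with other markers. Beside its 123 CPM of Cd74 and 46.1 CPM of H2-Ob, it held 12.7 CPM of Cd79a, 26.4 CPM of Lyz2, the lysozyme of myeloid cells, 17.3 CPM of Csf1r, a receptor of macrophages, and 12.8 CPM of S100a9, a neutrophil protein. The 16 macrophage and monocyte markers summed to 108 CPM there, against between 4.70 and 9.18 CPM in the other 7 non-intermediate 72 h libraries, and the neutrophil markers to 37.8 CPM against at most 0.854 CPM. Without this library the highest H2-Aa value among non-intermediate 72 h libraries was 1.47 CPM and the highest Ciita value 0.168 CPM. The part of these cell types in its class II level was not tested.

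Between 72 h and 24 h, the change of the members was tested under each condition with edgeR's quasi-likelihood test, Benjamini-Hochberg adjusted over all 14560 genes. Under the TLR7 agonist 7 of 10 members passed, against 43.2% of all genes tested, 4 of them lower (24.2% of all genes) and 3 higher (19.0%) at 72 h. Cd74 fell by 3.39 on the log2 scale (SE 0.70, adjusted p = 0.00153), to 3.39 ± 1.11 CPM at 72 h against 36.1 ± 13.1 CPM at 24 h (SD, n = 4 each). H2-Aa fell by 3.97 (SE 1.02, adjusted p = 0.00543), Ciita by 3.68 (SE 1.06, adjusted p = 0.0103) and H2-Eb1 by 1.92 (SE 0.57, adjusted p = 0.0119), each lower in every 72 h library than in any 24 h library, as were 26.6% of all genes. The fitted value for Ciita depends on the prior count, since its 72 h libraries held so few reads. H2-DMa, H2-Ab1 and H2-DMb1 rose, by log2 fold changes of 1.47, 1.32 and 0.88 (adjusted p = 0.0194, 0.0122 and 0.0159), and H2-DMa and H2-DMb1 did so without overlap of the 2 times, as did 21.9% of all genes. The call of H2-DMa was lost without TLR7 24 h replicate 1 or 2 and that of H2-DMb1 without replicate 2, with adjusted p no higher than 0.0665 and 0.0503 in these omissions. Without the 8 intermediate libraries, 2 of them in these groups, 9 members passed, against 52.1% of genes, and H2-Oa with a log2 fold change of 5.24 and H2-Ob with 2.50 were then among them. Without the 5 shallow libraries none of the 7 passed, with the same directions and adjusted p between 0.0865 and 0.196. H2-Eb1 had a log2 fold change of -2.73 without TLR7 72 h replicate 3 and Ciita one of -4.80 without TLR7 72 h replicate 4, and both passed.

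With peptide alone 5 of 10 members passed, all lower at 72 h, against 18.6% of all genes and 10.4% called lower. H2-Aa was at 12.8 ± 14.8 CPM at 72 h and 76.7 ± 45.5 CPM at 24 h (log2 fold change -2.58, SE 0.86, adjusted p = 0.0436). Ciita fell by 2.64 (adjusted p = 0.0334), H2-DMb2 by 1.75 (0.0333), H2-Eb1 by 1.72 (0.0386) and H2-DMb1 by 0.81 (0.0418), and Cd74 had a log2 fold change of -1.78 with an adjusted p of 0.0509. None of the 5 calls held without OVA 72 h replicate 2 or 3 or OVA 24 h replicate 2 or 4, and only H2-DMb2 held without OVA 72 h replicate 1. The adjusted p then ranged up to between 0.118 and 0.135 for the 5 genes. Without OVA 72 h replicate 3 the log2 fold changes of H2-Aa and H2-Eb1 were -3.57 and -2.45, and without OVA 72 h replicate 4 Ciita passed with -3.43. Without the shallow libraries none of the 5 passed, with adjusted p between 0.165 and 0.174. Without the 8 intermediate libraries, 3 of them in these groups, 8 members passed, against 48.5% of genes, with Cd74 lower at -2.31 and H2-Oa higher at 2.53 and H2-DMa higher at 1.48 on the log2 scale.

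Under the TLR2 agonist 2 of 10 members passed, both higher at 72 h, against 39.0% of all genes and 21.7% called higher. H2-DMa was at 19.3 ± 5.96 CPM at 72 h and 4.65 ± 2.06 CPM at 24 h (log2 fold change 2.05, SE 0.50, adjusted p = 0.00856), and H2-Oa at 17.2 ± 4.43 CPM and 1.74 ± 0.935 CPM (3.29, SE 0.81, adjusted p = 0.00889). Both were higher in every 72 h library than in any 24 h library, as were 27.0% of all genes, and both calls held whichever library was left out. Cd74, H2-Aa and Ciita had log2 fold changes of -1.34, -1.29 and -1.07 that did not pass. Of the 4 TLR2 72 h libraries 3 are intermediate, and with only replicate 2 left for that group the same 3 genes passed with log2 fold changes of -4.12, -5.34 and -3.94, among 6 members called against 43.4% of genes, that single library being assumed to vary as the other groups do.

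**Figure D3:**
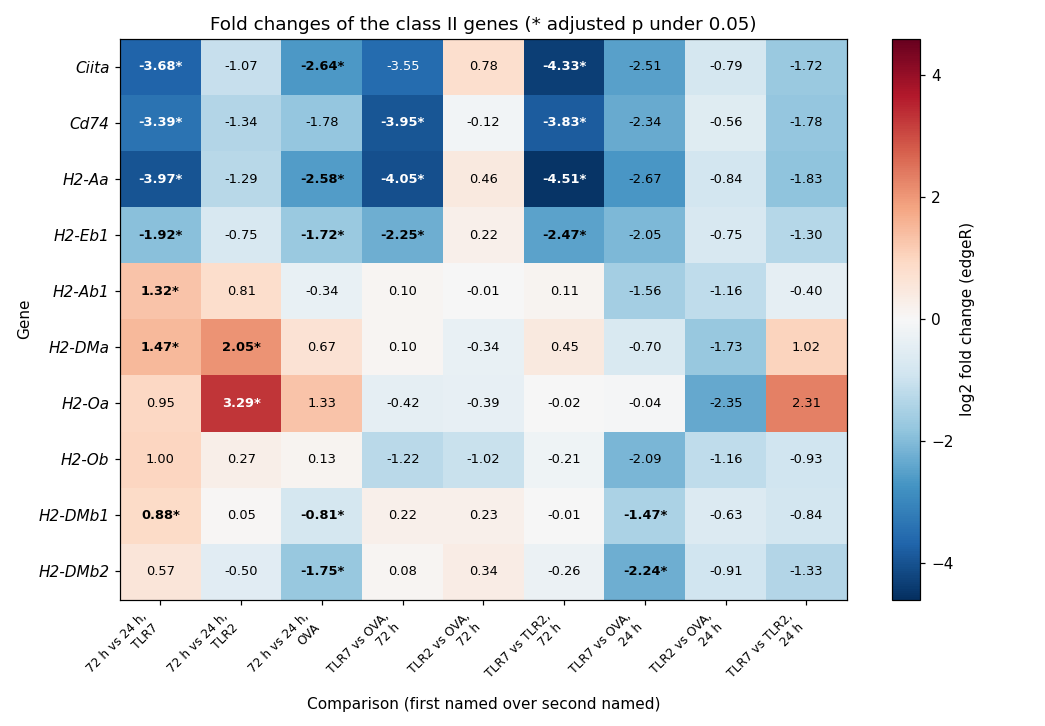
Heat map of the log2 fold change of each member (rows) in each 2-group comparison (columns), red where the first-named group is higher and blue where it is lower, with the value printed in each cell and a star where the adjusted p is under 0.05. TLR7 against OVA at 24 h has all 10 members below 0, while at 72 h Cd74, H2-Aa, H2-Eb1 and Ciita lie between -2.25 and -4.05 and the other 6 between -1.22 and 0.22.

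At 72 h, TLR7 against OVA, 3 of 10 members passed, all lower under TLR7, against 3.62% of all genes and 3.21% called lower. Cd74 was at 3.39 ± 1.11 CPM under TLR7 and 52.9 ± 49.7 CPM under OVA, 15.4-fold lower (log2 fold change -3.95, SE 0.71, adjusted p = 0.00552). H2-Aa had a log2 fold change of -4.05 (SE 1.02, adjusted p = 0.0297), H2-Eb1 of -2.25 (SE 0.57, adjusted p = 0.0307) and Ciita of -3.55 (adjusted p = 0.0632). The 6 other members lay between -1.22 for H2-Ob and 0.22 for H2-DMb1, H2-Ob being at 0.05 without OVA replicate 3, and the members' median was -0.82 beside -0.08 for all genes. Without OVA replicate 3, whose 123 CPM stood apart, Cd74 averaged 29.5 CPM under OVA and was 8.59-fold lower under TLR7 (log2 fold change -3.10, adjusted p = 0.0162). Without the shallow libraries none of the 3 passed, Cd74 having a log2 fold change of -3.72 and an adjusted p of 0.320. The call of Cd74 held whichever single library was left out and, with log2 fold change -3.82, without the intermediate libraries, 1 of them in these groups, where it was the only member called and 1.63% of genes were. H2-Aa and H2-Eb1 lost theirs without OVA replicate 3 or 4 and without TLR7 replicate 1, 2 or 4, H2-Aa also without TLR7 replicate 3, with adjusted p up to 0.127 and 0.159. Their log2 fold changes were -3.07 and -1.52 without OVA replicate 3, and that of H2-Eb1 was -3.07 without TLR7 replicate 3.

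TLR7 against TLR2 at 72 h gave 4 of 10 members, all lower under TLR7, against 4.80% of all genes and 3.94% called lower. H2-Aa had a log2 fold change of -4.51 (SE 1.03, adjusted p = 0.0219), Ciita of -4.33 (SE 1.03, 0.0258), Cd74 of -3.83 (SE 0.71, 0.0143) and H2-Eb1 of -2.47 (SE 0.57, 0.0236), with every TLR7 library below every TLR2 library for each of the 4, as for 10.7% of all genes. The other 6 members lay between -0.26 and 0.45. All 4 calls were lost without TLR2 replicate 1 or without TLR7 replicate 1, 2 or 4, and without TLR2 replicate 3 only Cd74 passed. Without TLR2 replicate 1 the log2 fold changes of H2-Aa, Ciita and Cd74 were -3.60, -3.37 and -3.15, without TLR7 replicate 4 that of Ciita was -5.45, and without TLR7 replicate 3 that of H2-Eb1 was -3.29. Without the shallow libraries none of the 4 passed, each with an adjusted p of 0.365, and the share of all genes passing in that run is not given. Without the intermediate libraries, which leaves TLR2 1 library, none of the 4 passed, and 0.00% of genes did. TLR2 against OVA at 72 h gave 0 of 10 members at an adjusted p under 0.05 by edgeR, 0 at an unadjusted p under 0.05 and 0 by DESeq2. By edgeR 0.00% of all genes passed, and 1693 of all 14560 genes had an unadjusted p under 0.05. The members' fold changes lay between -1.02 for H2-Ob and 0.78 for Ciita, with H2-Ob at 0.26 without OVA replicate 3. The TLR7 and TLR2 comparisons share their OVA libraries.

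At 24 h, TLR7 against OVA, all 10 members had fold changes below 0 and a median of -2.07, beside -0.03 for all genes. For 8 of 10 every TLR7 library was below every OVA library, against 3.03% of all genes, the exceptions being H2-DMa and H2-Oa. Only H2-DMb2 and H2-DMb1 passed the test, against 0.220% of all genes and 0.0687% called lower. H2-DMb2 was at 2.43 ± 0.365 CPM under TLR7 and 11.6 ± 5.30 CPM under OVA (log2 fold change -2.24, SE 0.35, adjusted p = 0.0283), and H2-DMb1 at 1.26 ± 0.402 CPM and 3.51 ± 0.225 CPM (-1.47, SE 0.27, adjusted p = 0.0283). H2-Aa had -2.67 (adjusted p = 0.200), Ciita -2.51 (0.167), Cd74 -2.34 (0.119), H2-Ob -2.09 (0.163), H2-Eb1 -2.05 (0.105) and H2-Ab1 -1.56 (0.0936), and none of these passed. DESeq2 called 7 members, with no share of all genes called by DESeq2 given here. Both edgeR calls were lost without TLR7 replicate 1 or 2 or OVA replicate 2 or 4, that of H2-DMb1 also without OVA replicate 1 or 3, with adjusted p up to 0.123 and 0.127, and without the shallow libraries neither passed. With the replicate number as a block H2-DMb2 was the only member called. Without the intermediate libraries, 4 of them in these groups, 6 members passed, against 2.52% of genes, and H2-Oa with -3.30 and H2-Ob with -3.83 were among them.

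TLR2 against OVA at 24 h likewise had all 10 fold changes below 0, with a median of -0.87 beside -0.01 for all genes. By edgeR 0 of 10 passed, where 0.00% of all genes did. The unadjusted p was below 0.05 for 5 members, against 2211 of all 14560 genes. By DESeq2, for which no share of all genes is given here, 1 passed, H2-DMa. The TLR2 libraries lay wholly below the OVA libraries for 3 members, H2-Ab1, H2-DMa and H2-Oa, against 3.12% of all genes. TLR7 against TLR2 at 24 h had 0 of 10 members by edgeR, against 1.24% of all genes. The unadjusted p was below 0.05 for 8 members, against 3095 of all 14560 genes. By DESeq2, again without a share of all genes, 3 passed. There 5 members, Cd74, H2-Aa, H2-Eb1, H2-DMb2 and Ciita, were lower in every TLR7 library than in any TLR2 library, against 8.51% of all genes.

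The TLR7 effect itself was tested for a difference between times. It differed for 2 of 10 members, against 0.810% of all genes, by 2.32 on the log2 scale for H2-DMb2 (SE 0.49, adjusted p = 0.0341) and by 1.69 for H2-DMb1 (SE 0.38, adjusted p = 0.0414). Both genes were lower under TLR7 at 24 h, and at 72 h their TLR7 fold changes were 0.08 and 0.22. The call of H2-DMb2 was lost without TLR7 72 h replicate 1, 2 or 4, OVA 72 h replicate 2, TLR7 24 h replicate 1, 2 or 3, or OVA 24 h replicate 2, with adjusted p up to 0.0733. That of H2-DMb1 was lost without any of these or without OVA 72 h replicate 3 or 4 or OVA 24 h replicate 3 or 4, with adjusted p up to 0.104, and neither passed without the shallow libraries. With the replicate number as a block only H2-DMb2 passed. For Cd74, H2-Aa, H2-Eb1 and Ciita the TLR7 effects of the 2 times differed by -1.61, -1.38, -0.20 and -1.04, none of which passed, so the TLR7 effect on them was not shown to differ between times. The TLR2 effect differed between times for 0 of 10 members by edgeR, where 0.00% of all genes passed, and for 0 by DESeq2. The unadjusted p was below 0.05 for 3 members, against 919 of all 14560 genes.

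Among 17 genes of class II transcription (subunits of RFX and NF-Y, interferon-γ receptors and the factors that act on Ciita), all tested, Pax5 was the only one called in the 3 comparisons in which Ciita was called and in no other. This match was picked after the values were seen and turns on the threshold, Pax5 having an adjusted p of 0.0667 by edgeR for the time change under TLR2. Pax5 is also among the B cell markers listed here, and a bearing of Pax5 on Ciita was not tested. Between 72 h and 24 h under TLR7, 2 were higher and 7 lower, where 43.2% of all genes were called, with a list median of -0.33 beside -0.01 for all genes. Pax5, a B cell factor, fell by 6.07 (adjusted p = 0.000893), Bcl6 by 2.68 (0.00133) and Irf8, which B cells and myeloid cells share, by 1.75 (0.000342), while Ifngr1, an interferon-γ receptor chain, rose with a log2 fold change of 1.71 (0.0317). Under TLR2, 4 were higher and 2 lower, where 39.0% of all genes were called, led by Prdm1, a repressor of Ciita in plasma cells, at 2.87 (0.00866) and Ifngr1 at 2.72 (0.00802). Under OVA, where 18.6% of all genes were called, 3 were higher, among them Ifngr1 at 1.94 (0.0406) and Ifngr2 at 1.48 (0.0400), and 3 lower, among them Pax5 at -3.66 (0.0333). Rfx5, the RFX subunit that contacts DNA, named here after its values were seen, was at 36.6 ± 3.74 CPM at 72 h and 24.9 ± 1.88 CPM at 24 h under TLR7 (log2 fold change 0.55, adjusted p = 0.0118). At 72 h, 3 were lower under TLR7 than under OVA, among them Bcl6 at -2.04 (0.0330) and Irf8 at -0.90 (0.0438), against 3.21% of all genes. Under TLR7 4 were lower than under TLR2, among them Pax5 at -5.82 (0.0154), against 3.94% of all genes.

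Of 12 listed genes of class II peptide loading and turnover found in the files, 11 were tested, of which 3 under TLR7, 4 under TLR2 and 4 under OVA were called between 72 h and 24 h, against 43.2%, 39.0% and 18.6% of all genes. Under TLR7, 2 were higher at 72 h, Ctsd at 0.82 (adjusted p = 0.0182) and Ctsb at 0.52 (0.0188), both lysosomal proteases, and March1, a ligase that removes class II from the surface, was lower at -3.09 (0.00427). Under TLR2, Ctsl, which cuts the invariant chain in thymic epithelium, Ctsd and Ctsb were higher and Ifi30, a lysosomal thiol reductase, lower at -0.77 (0.00889). Under OVA, Ctsl at 1.08 (0.0333) and Ctsb were higher and H2-Eb2 at -2.63 (0.0348) and March1 at -2.19 (0.0367) lower. Ctss, the protease that cuts the invariant chain in B cells and dendritic cells, averaged 45.4 CPM under TLR7 and 73.2 CPM under OVA at 72 h (log2 fold change -0.69, SE 0.16, adjusted p = 0.0233).

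Markers of antigen-presenting cells were counted in the same comparisons. Of 20 B cell markers, 11 were lower and 2 higher at 72 h than at 24 h under TLR7, and 12 were lower under OVA, while under TLR2 1 was lower and 1 higher. Of all genes 24.2% were lower under TLR7 and 10.4% under OVA, and 39.0% were called under TLR2, so the TLR2 count of B cell markers was below the share of all genes. Under TLR7, 5 were lower than under OVA and 10 lower than under TLR2 at 72 h, and 3 lower than under OVA at 24 h. Of all genes 3.21%, 3.94% and 0.0687% were called lower in these comparisons. Their sum lay between 160 and 301 CPM under TLR7, 305 and 663 under TLR2 and 405 and 795 under OVA at 72 h, and between 421 and 613, 723 and 820, and 505 and 1117 CPM in the same order at 24 h, most of it from Ighm, which was still at 127 CPM or more in every library. Ms4a1, a B cell surface protein, had a median of 0.0798 CPM in the 8 non-intermediate 72 h libraries, against 22.8 CPM in those of 24 h, and was at 0 in 3 of the 72 h libraries. Among 16 dendritic cell genes, 12 of them tested, 6 were lower and 1 higher at 72 h under TLR7, against 24.2% and 19.0% of all genes. Their sum lay between 36.9 and 53.7 CPM in the non-intermediate 72 h libraries, against 118 and 205 CPM as the bounds at 24 h. Flt3 was at 0 in 2 of these 72 h libraries and Zbtb46 at 0.190 CPM or more in all 8. Macrophage and monocyte markers summed to between 4.70 and 108 CPM in the non-intermediate 72 h libraries, with Csf1r at 0 in 3 of 8. Without OVA replicate 3 that sum was at most 9.18 CPM. In the non-intermediate 24 h libraries it lay between 67.7 and 158 CPM, with Csf1r at 0.396 to 2.45 CPM. In the same 2 sets plasma cell genes summed to between 73.6 and 99.6 CPM at 72 h and between 154 and 198 CPM at 24 h. NK cell genes summed to 2.51 ± 1.92 CPM and 5.21 ± 1.79 CPM (SD, n = 8 each, pooled over the conditions). Without OVA replicate 3 the NK cell sum at 72 h was 1.84 ± 0.221 CPM (n = 7). Costimulatory ligands summed to between 87.5 and 311 CPM at 72 h and between 191 and 288 CPM at 24 h. The T cell genes summed to between 4427 and 5441 CPM at 72 h and between 2156 and 3565 CPM at 24 h. The CD4 T cell list was higher in sum at 72 h through Zbtb7b alone, at a median of 23.9 CPM at 72 h and 1.04 CPM at 24 h, while Cd4 and Foxp3 had lower medians at 72 h. As with Ighm, single genes made up much of other sums. In the OVA 72 h libraries the plasma cell sums lay between 75.2 and 128 CPM, with Txndc5 alone between 62.4 and 104 CPM. The dendritic cell sums there lay between 40.8 and 78.4 CPM, with Cd24a between 16.1 and 51.5 CPM and Cacnb3 between 5.26 and 17.5 CPM. The sums of these lists therefore do not measure amounts of a cell type. The part of each cell type in the level of the class II genes was not tested.

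**Figure D4:**
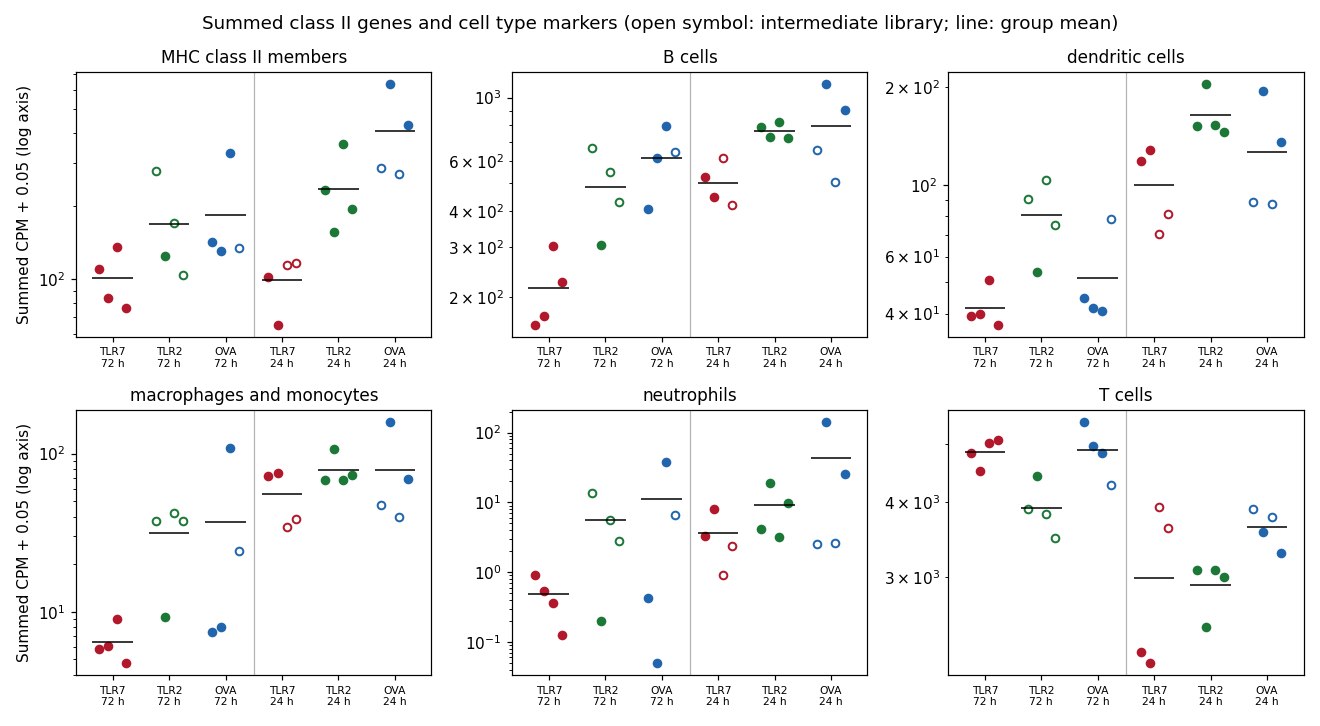
Summed CPM (+ 0.05, log axis) of the class II members and 5 marker lists in every library, by group, with a line at the group mean and open symbols for the 8 intermediate libraries. B cell, dendritic cell and macrophage sums have their lowest group mean under TLR7 at 72 h. Among the filled 72 h libraries OVA replicate 3 stands out at 108 CPM for macrophages. The T cell sum has a higher group mean in each 72 h group than in any 24 h group.

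The genes whose level over the 24 libraries was most like the members' mean log2 CPM were Cd79b (Pearson r = 0.911), Mbp (0.905), Scn4a (0.893), Hcls1 (0.885), Fcer2a (0.881), Nfatc1 (0.874), Cacna1i (0.859), Mboat7 (0.838), Chst3 (0.837) and Blk (0.833). Over deviations from the group means the r of these 10 lay between 0.640 and 0.860. The 24 points share a time course and the intermediate libraries, so r is a description. Each member's own r with that mean, to which it contributes, was 0.868 for H2-Eb1, 0.822 for H2-DMb2, 0.816 for Cd74, 0.787 for Ciita, 0.776 for H2-Aa, 0.742 for H2-Ob, 0.641 for H2-DMb1, 0.464 for H2-Ab1, 0.117 for H2-Oa and 0.0750 for H2-DMa. The mean over the 10 members therefore tracked H2-Oa and H2-DMa little.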

How the data were processed

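Poly-A RNA of 24 libraries was sequenced after a stranded kit, per the labels' protocols. The deposited tables hold expected counts per gene, which the authors made with STAR and RSEM on GRCm38, per the submitters' processing notes, with edgeR also named there. No source used here gives the strand setting. Of the values above 0, 28.7% were not whole, and counts were rounded for testing. Each table held 48526 genes, with no row lacking a gene name.

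All 24 libraries entered 1 edgeR quasi-likelihood model (edgeR 4.0.16, R 4.3.3) with a term per group, TMM scaling and filterByExpr (minimum count 10, minimum total 15), which left 14560 genes and 18 residual degrees of freedom. Contrasts were adjusted by Benjamini-Hochberg over all genes tested, with a threshold of 0.05. CPM values use TMM library sizes, and per-kilobase values divide by exonic length in GENCODE M21, on which 48058 IDs had a position. On simulated counts for these genes, the same fit was checked for recovering known changes. The simulated spread was smaller than that of these data and no intermediate libraries were simulated, so the check does not cover these features.

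The members and gene lists, and the alternatives that leave out intermediate or shallow libraries, were chosen with earlier results of these data known. The 10 members were named in every comparison. Named besides them were the 10 genes with the highest correlation with the members' mean log2 CPM over the 24 libraries (predicted genes and receptor segments left out), up to 4 called genes per comparison of the transcription and loading lists, by size of change, and defining markers of the cell type lists. Some genes that these rules name are not reported here. The other lists cover B cells, plasma cells, dendritic cells, macrophages and monocytes, neutrophils, T cells, CD4 T cells, NK cells and costimulatory ligands. The ratios to Cd79a and Cd3e and the values without OVA 72 h replicate 3 were added after the data were seen. Alternatives were DESeq2 1.42.0, its size factors in edgeR, no filter on low counts, the replicate number as a block, and omission of the intermediate libraries, of the 5 shallow libraries, and of each library in turn. Promoter letters were searched in RefSeq entries on both strands. The detection limit of 3 counts equals between 0.111 and 0.285 CPM per library and covers counting error only.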

Additional observations from a re-analysis of the deposited data

Results flagged for a closer look

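In 4 of 60 sample groups (10 genes in 6 groups of 4 libraries) a single library lay farther from the rest than the 95% critical value of Dixon's test allows, and chance alone flags about 1 in 20 such groups. H2-Ob in OVA 72 h replicate 3 was at 46.1 CPM, against at most 7.56 CPM in the other 3 libraries. H2-Eb1 in TLR7 72 h replicate 3 was at 5.87 CPM, against between 1.32 and 1.90 CPM. H2-Ab1 in OVA 24 h replicate 2 was at 59.4 CPM, against between 38.9 and 42.3 CPM. Ciita in TLR2 24 h replicate 3 was at 4.44 CPM, against between 1.58 and 2.05 CPM.

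The TLR7 effect on H2-DMb1 differed between 72 h and 24 h by 1.69 on the log2 scale and that on H2-DMb2 by 2.32, by a test of the difference itself (edgeR's quasi-likelihood test, adjusted p = 0.0414 and 0.0341). These genes share sequence, so they are not 2 separate observations.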

How the results depend on the processing

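No call of a member turned to the opposite direction under any alternative run. Of the 110 single fold changes, 18 changed sign without the intermediate libraries and 5 without the shallow libraries, all of them called in neither run. Without the intermediate libraries the number of members called was 1 for TLR7 against OVA at 72 h (3 with all libraries), 0 for TLR7 against TLR2 at 72 h (4), 6 for TLR7 against OVA at 24 h (2), 8 for 72 h against 24 h under OVA (5), 6 under TLR2 (2) and 1 for the difference of the TLR7 effect between times (2). Without the 5 shallow libraries it was 0 for each of TLR7 against OVA at 72 h and at 24 h, TLR7 against TLR2 at 72 h, 72 h against 24 h under OVA and under TLR7 (7), and the TLR7 effect difference; this leaves 2 TLR7 libraries at 72 h. With no filter on low counts it was 1 for TLR7 against OVA at 24 h, 3 for the OVA time change and 1 for the TLR7 effect difference. DESeq2 called 7 for TLR7 against OVA, 1 for TLR2 against OVA and 3 for TLR7 against TLR2, all at 24 h. No share of all genes called by DESeq2 is given here. Omitting libraries leaves fewer samples, and the share of all genes called without the shallow libraries is not given here. Otherwise the cause of these shifts was not tested.

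Leaving out 1 library at a time gave between 1 and 4 members for TLR7 against OVA and 0 and 4 for TLR7 against TLR2 at 72 h, 0 and 2, 0 and 1, and 0 and 1 for TLR7 against OVA, TLR2 against OVA and TLR7 against TLR2 at 24 h, 5 and 7, 2 and 4, and 0 and 6 for the time change under TLR7, TLR2 and OVA, 0 and 3 for the TLR7 effect difference, and 0 in each omission for TLR2 against OVA at 72 h and the TLR2 effect difference. Of 110 single fold changes, 109 kept their side of the threshold with DESeq2's size factors, 106 with the replicate block, 105 without the filter, 98 by DESeq2, 90 without the intermediate and 87 without the shallow libraries. With the replicate number as a block, TLR7 against OVA at 24 h had 1 member and the TLR7 effect difference 1, H2-DMb2 in each, H2-DMb1 having adjusted p of 0.0591 and 0.0563. Same-numbered libraries of different groups had correlations of their deviations between -0.616 and 0.525 (median 0.0388), with 21 of 60 pairs over 0.1. The labels do not pair these libraries. Since the deviations also carry which libraries are intermediate, the correlations cannot decide whether same-numbered libraries were paired.

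Depth limits some values: at 72 h under TLR7 Ciita and H2-Aa rest on at most 3 and 20 counts per library, and at 24 h under TLR7 H2-Oa on as few as 4.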
